A study of Mus musculus with 10 samples.

Results

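The clustered protocadherins are a family of cell adhesion genes that lie side by side in 3 arrays on mouse chromosome 18. The members described here are the 58 rows of the deposited gene count table, out of 55573, whose gene name fits the pattern of an alpha, beta or gamma clustered protocadherin isoform. They comprise 14 alpha, 22 beta and 22 gamma isoforms. In GRCm38 with the GENCODE M21 annotation the alpha cluster spans chromosome 18 from 36930184 to 37187661, the beta cluster from 37264938 to 37524479 and the gamma cluster from 37661793 to 37841873, and all 58 genes are on the plus strand. The annotation calls 57 of them protein coding and 1, Pcdhgb8, a polymorphic pseudogene.

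RNA was polyA-selected and sequenced from cortical projection neurons of mouse pups on postnatal day 3. The 5 Cdk7_KO libraries came from NexCre/+;Cdk7lox/lox, R26EYFP/+ pups and the 5 Ctrl libraries from NexCre/+;Cdk7+/+, R26EYFP/+ pups, 1 sorted preparation from each pup. All pups carried the NexCre driver, which is active from the Neurod6 locus in young excitatory neurons of the dorsal forebrain, and the R26EYFP reporter by which the cells were sorted. Cre acts only in cells of that lineage, so other cells of Cdk7_KO pups kept Cdk7. The comparison asks how loss of Cdk7, the kinase of the general transcription factor TFIIH that phosphorylates RNA polymerase II, affects RNA levels in these neurons.

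Each alpha and gamma isoform is transcribed from its own promoter in front of a variable exon that encodes the extracellular, transmembrane and first cytoplasmic part, and that exon is spliced to constant exons common to the cluster. Beta isoforms consist of a variable exon alone. In single neurons a few of the alternate isoforms are chosen by promoter activation that depends on the insulator protein CTCF, cohesin and distal enhancers, while the C-type isoforms at the 3′ ends of the alpha and gamma clusters are under separate control and are broadly expressed. The proteins form combinatorial recognition units at cell contacts, with which neurites tell self from non-self. RNA from a sorted population sums over these choices, so that the values below are population levels and not the repertoire of a cell.

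Because the variable exon is the part that tells isoforms apart, the sharing of exons bears on every value. The alpha isoforms share between 2860 and 5274 exonic bases with other gene models on the same strand, and the gamma isoforms between 2116 and 3157. Beta isoforms share none, apart from the 455 bases in which Pcdhb21 and Pcdhb22 overlap. The annotation also holds 4 transcripts made of shared exons alone, Gm42416, Gm37013, Gm37388 and Gm38182, and each was listed at 0 in all 10 libraries. Pcdha4, whose variable exon is also an exon of Gm42416, has 494 unshared bases and was at 0 to 4 counts per library, with 6 libraries at 0. Its count therefore cannot be read as its level. The name Pcdha11 stands on a pair of rows, and these are called here by their identifiers ENSMUSG00000007440 and ENSMUSG00000102206. The RefSeq table of the same build places Pcdha10 from 37005320, within the row ENSMUSG00000007440.

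Total counts per library lay between 23497621 and 31233466. Cdk7 was at 5.16 ± 1.30 CPM (counts scaled to the library total) in Cdk7_KO and 15.7 ± 4.00 CPM in Ctrl (SD, n = 5 each), and the groups did not overlap (log2 fold change -1.54, SE 0.22, edgeR adjusted p = 0.161, DESeq2 adjusted p = 2.41e-08, two-sided exact permutation p = 0.00794, the smallest that 5 against 5 libraries can give). Markers of projection neurons summed to between 2343 and 3221 CPM in Cdk7_KO and between 2032 and 2984 CPM in Ctrl, with 0 of their 10 genes undetected. All 10 had a positive log2 fold change (median 0.31), where 52.5% of all genes tested did. In edgeR 3 of them were higher at an unadjusted p under 0.05, where 4.90% of all genes were, and 0 passed the correction. The part of the neuron markers' rise in the protocadherin values was not tested. Summed markers of other cells tended to be lower in Cdk7_KO, although 0 of these 50 markers passed the correction in edgeR. DESeq2 called 9 of them lower, where 3.02% of the genes with an adjusted p were, and 0 higher, where 0.225% were. The 9 were 4 radial glia and astrocyte markers (Vim, Hes5, Pax6 and Notch1), the oligodendrocyte marker Cnp and 4 erythroid markers. Vim and Notch1 were also the 2 markers whose groups did not overlap, both lower, where 2.41% of all genes tested were. The 11 radial glia and astrocyte markers summed to between 223.4 and 925.3 CPM in Cdk7_KO and between 872.5 and 1598 CPM in Ctrl. All 11 had a negative log2 fold change with an unadjusted p under 0.05 in edgeR, where 10.5% of all genes tested did. The 10 interneuron markers summed to between 31.2 and 314.9 CPM in Cdk7_KO and between 99.4 and 441.9 CPM in Ctrl, and the 7 vascular markers to between 65.5 and 258.2 CPM in Cdk7_KO and between 238.2 and 1092 CPM in Ctrl. Those of Cajal-Retzius cells (1 of 5 positive), microglia (0 of 6), oligodendrocyte lineage (0 of 6) and erythroid cells (0 of 5) were also mostly negative, and 0 genes of any of these lists were at 0 in all libraries. Their part in the protocadherin values was not tested, and in sorted bulk RNA fewer cells of a type and less RNA per cell cannot be told apart. By the RNA of Xist and Ddx3y, 3 Cdk7_KO and 2 Ctrl libraries were male and carry the replicate numbers 1 to 3, and 2 Cdk7_KO and 3 Ctrl libraries were female and carry the numbers 4 to 6. Sex and replicate number thus cannot be told apart, and values within each sex are given for the isoforms described at length.

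Nearly the whole family was detected in the sorted preparations. Of the 58 isoforms, 55 had at least 10 counts in every library and 46 had at least 100, and 56 passed the filter on low counts. Those that did not were Pcdha4 and Pcdhb1, of which Pcdhb1 was at 0 to 10 counts with 3 libraries at 0. Together the 58 isoforms took 1226 ± 79.6 CPM in Cdk7_KO and 1193 ± 56.4 CPM in Ctrl (SD, n = 5 each).

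Levels spread widely across the family. To compare isoforms, levels are given as CPM per kb of unshared exon. This takes reads in shared exons as not counted, which the sources used here do not state. If such reads were counted, alpha and gamma levels would be too high beside beta levels. Pcdhgc3, a C-type isoform that promotes dendrite branching in cortical neurons and is also expressed by astrocytes, was highest, at 83.7 CPM per kb in Cdk7_KO and 84.5 CPM per kb in Ctrl. Next came Pcdhgc4, the gamma isoform needed for the survival of cortical interneurons, at 28.1 CPM per kb in Cdk7_KO and 23.5 CPM per kb in Ctrl. The alternate isoform Pcdhga11 followed with 21.8 CPM per kb in Cdk7_KO and 19.9 CPM per kb in Ctrl. Averaged over the 10 libraries, the median gamma isoform was at 7.61 CPM per kb, the median alpha isoform at 3.06 and the median beta isoform at 2.29. In the alpha cluster the C-type Pcdhac2 was highest, at 14.1 CPM per kb over all libraries, and in the beta cluster Pcdhb17, at 7.09. Not every C-type isoform was abundant: Pcdhac1 was at 2.31 CPM per kb in Cdk7_KO and 2.10 in Ctrl, and Pcdhgc5 at 2.85 CPM per kb in Cdk7_KO and 2.79 in Ctrl. At the low end of the isoforms that passed the filter were Pcdha8, Pcdha1 and Pcdhgb8.

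**Figure D1:**
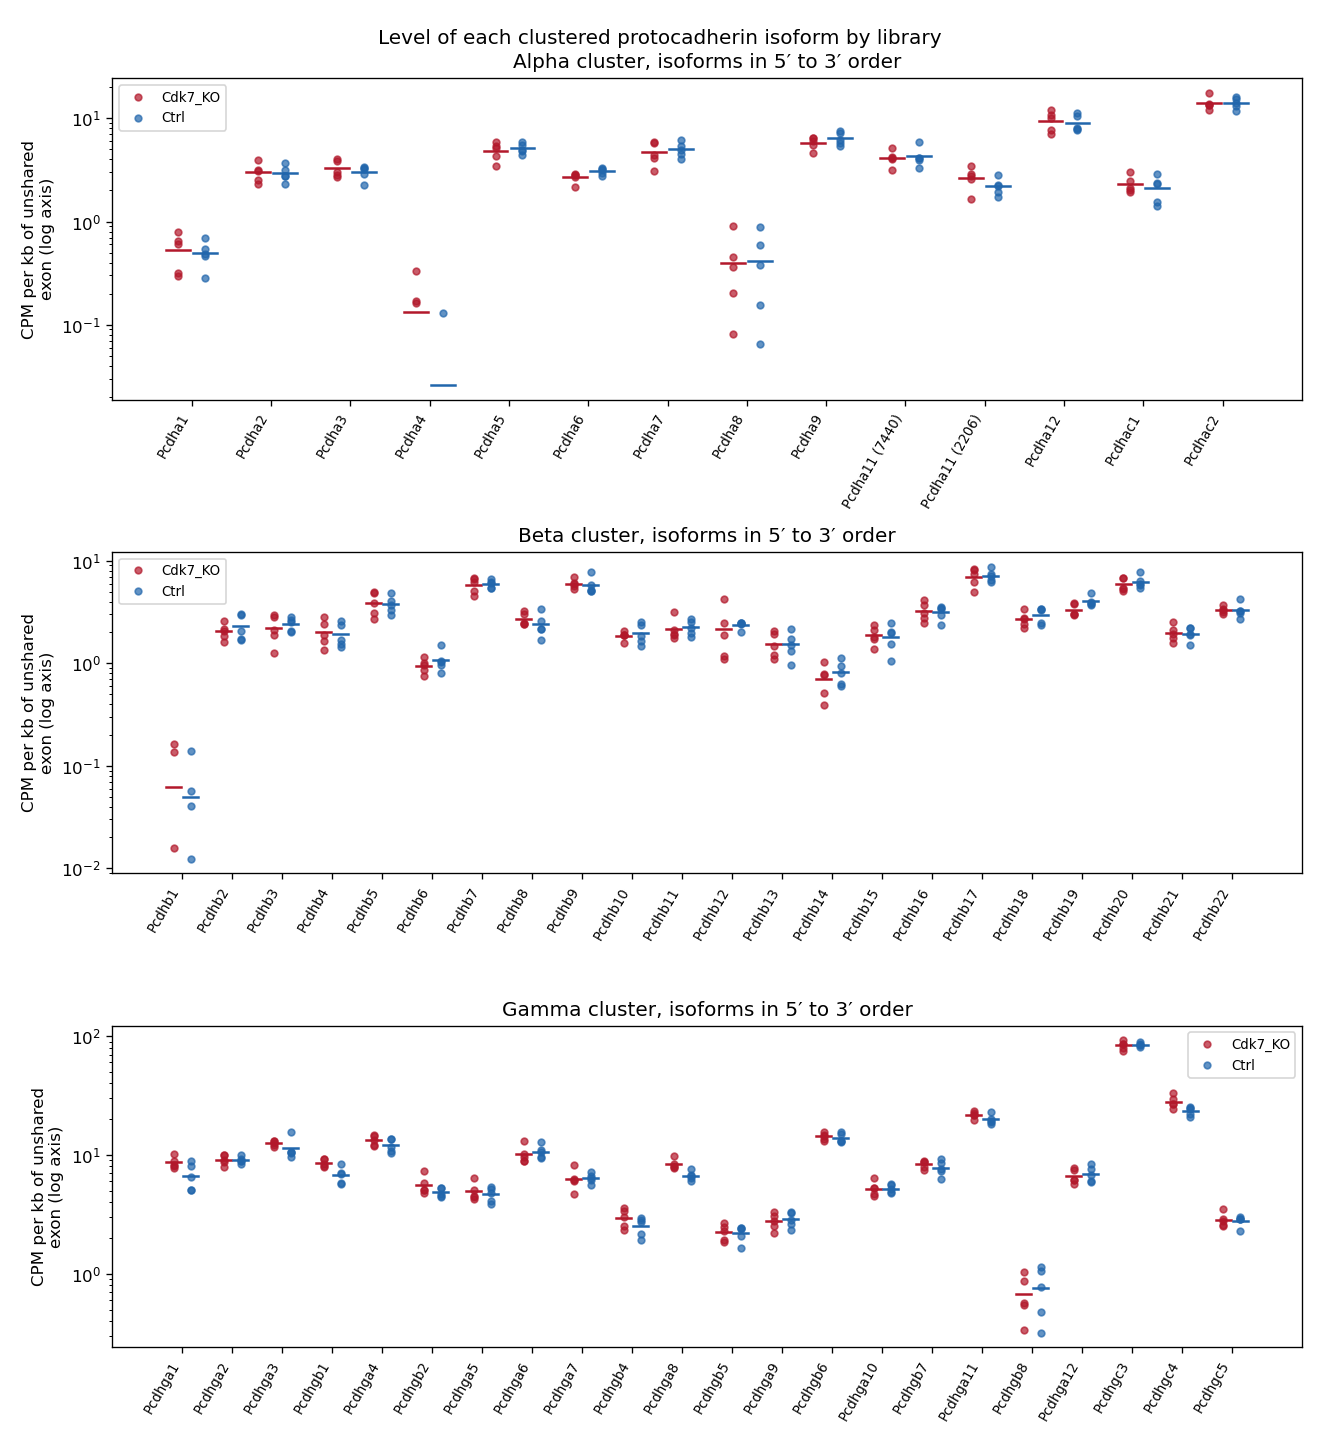
Level of each isoform, in CPM per kb of exon shared with no other gene model on a log axis, for the 5 Cdk7_KO (red) and 5 Ctrl libraries (blue), with isoforms in 5′ to 3′ order and horizontal bars at group means; libraries at 0, which occur for Pcdha4 (6 libraries) and Pcdhb1 (3 libraries), are not drawn. The 2 rows named Pcdha11 carry the last digits of their identifiers, and Pcdhgc3 stands highest, at 83.7 CPM per kb in Cdk7_KO and 84.5 in Ctrl.

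The spread between libraries differed from isoform to isoform. The biological coefficient of variation, which edgeR estimates per gene beyond counting error, had a median of 19.8% over the 56 tested isoforms and 18.3% over all 15578 genes tested. It was lowest for Pcdhgc3 at 9.23% and highest for Pcdha8 at 73.7%. Pcdha8 ranged from 5 to 54 counts per library, and the range was as wide within each genotype, from 0.203 to 2.23 CPM in Cdk7_KO and from 0.160 to 2.18 CPM in Ctrl. Pcdhgb8 (43.8%), Pcdha1 (37.7%) and Pcdhb12 (36.8%) followed. For such isoforms the 95% interval of the fold change was wide, and for Pcdha8 it ran from -1.49 to 1.54 on the log2 scale.

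The comparison of the genotypes gave small differences across the family. In edgeR's quasi-likelihood test over all 15578 genes, 0 of the 56 tested isoforms passed the correction, where 0.00% of all genes did, and the smallest adjusted p of an isoform was 0.167. Before correction 5 isoforms were higher in Cdk7_KO at a p under 0.05, where 4.90% of all genes were, and 0 were lower, where 10.5% of all genes were. DESeq2 called 1 isoform higher, Pcdhga8, where 0.225% of the genes with an adjusted p were called higher, and 0 lower, where 3.02% were. The log2 fold changes of the 56 lay between -0.23 and 0.42, with a median of 0.07 and 40 above 0. Over all genes tested the median was 0.01 and 52.5% were above 0.

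By cluster, 9 of 13 alpha, 12 of 21 beta and 19 of 22 gamma isoforms had a positive log2 fold change, with medians of 0.05, 0.02 and 0.12. The 5 isoforms at an unadjusted p under 0.05 were all in the gamma cluster. They were Pcdhga8, Pcdhgc4, Pcdhgb1, Pcdhga1 and Pcdhga11. In the male libraries alone 0 isoforms reached that p, in the female libraries alone 6 did, and with sex as a factor 6 did, all higher. The share of all genes is not given for these fits, so these counts and the signs below have no background. Within the male libraries 32 of the 56 isoforms had a positive log2 fold change (median 0.02), and within the female libraries 45 did (median 0.18). By cluster, the positive ones were 5 of 13 alpha, 14 of 21 beta and 13 of 22 gamma isoforms within the male libraries, and 12, 13 and 20 within the female libraries. The sign differed between the sexes for 31 of the 56. These effects are not shown to differ between the sexes, since the smallest adjusted p of an isoform for edgeR's genotype by sex term was 0.665. For Pcdhb12 the log2 fold change was -0.67 within the male and 0.55 within the female libraries.

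**Figure D2:**
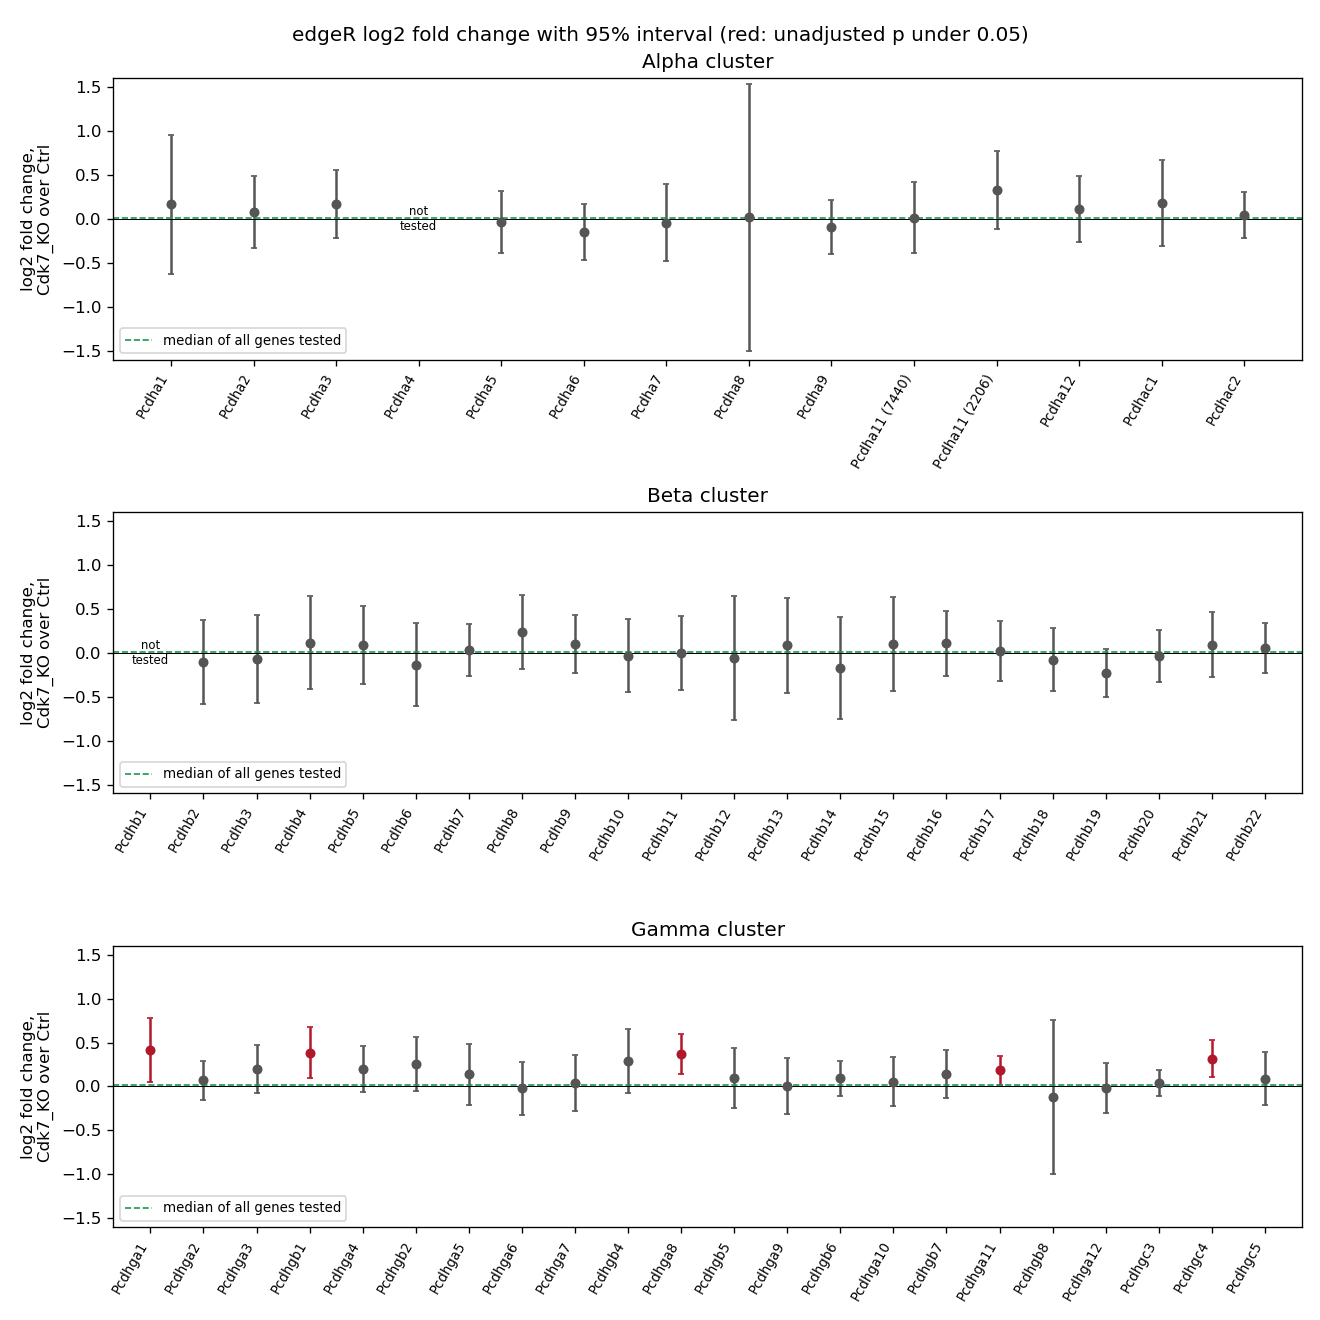
edgeR log2 fold change of each isoform, Cdk7_KO over Ctrl, with its 95% interval, isoforms in 5′ to 3′ order; red marks an unadjusted p under 0.05, the dashed line the median of all genes tested, and Pcdha4 and Pcdhb1 were not tested. The 5 red points are gamma isoforms between 0.18 and 0.42, while alpha and beta isoforms scatter around 0.

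Among the gamma A isoforms, alternate isoforms that alternate with the B type along the cluster, Pcdhga8 differed most clearly. Its gene, ENSMUSG00000103897, lies from 37725706 to 37841873, about midway in the cluster, and the antisense model Gm37165, which overlaps it and Pcdhga7, had 0 to 15 counts per library. Pcdhga8 was at 21.2, 19.3, 24.4, 19.9 and 20.2 CPM in Cdk7_KO replicates 1 to 5, against 16.6, 19.1, 15.2, 16.1 and 16.95 CPM in Ctrl replicates 1, 3, 4, 5 and 6. The lowest Cdk7_KO library lay just above the highest Ctrl library, and Pcdhga8 was the 1 tested isoform whose groups did not overlap upwards, where 0.610% of all genes did so, while 0 isoforms did so downwards, where 2.41% did. Its log2 fold change was 0.37 (SE 0.11, 95% interval 0.14 to 0.60, edgeR adjusted p = 0.167, DESeq2 adjusted p = 0.0415). DESeq2 called it in 2 of 10 fits that each left out 1 library, those without Cdk7_KO replicate 2 (adjusted p = 0.0480) and without Ctrl replicate 3 (0.0328). In the other fits its DESeq2 adjusted p lay between 0.0546 (without Ctrl replicate 6) and 0.124 (without Ctrl replicate 5), with 0.0710, 0.0999, 0.0878 and 0.0943 without Cdk7_KO replicates 1, 3, 4 and 5 and 0.0966 and 0.101 without Ctrl replicates 1 and 4. Its DESeq2 log2 fold change lay between 0.32 and 0.43 over the 10 fits. Of the other isoforms, DESeq2 called Pcdhgc4 without Cdk7_KO replicate 3, Pcdhgb1 without Ctrl replicate 1 and Pcdhga3 without Ctrl replicate 3. The edgeR log2 fold change of Pcdhga8 was 0.29 within the male and 0.41 within the female libraries.

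Pcdhgb1 and Pcdhga1 lie at the 5′ end of the gamma cluster. Pcdhga1, the first isoform of the cluster, was at 29.0, 33.2, 25.0, 26.4 and 26.8 CPM in Cdk7_KO replicates 1 to 5, against 28.6, 26.3, 16.4, 16.4 and 20.99 CPM in Ctrl replicates 1, 3, 4, 5 and 6. The Ctrl replicates 1 and 3 reached the Cdk7_KO range, while the Ctrl replicates 4, 5 and 6 lay below it. Pcdhga1 had a log2 fold change of 0.42 (SE 0.17, edgeR adjusted p = 0.266), which was 0.10 within the male and 0.66 within the female libraries. Pcdhgb1 was at 24.2, 20.6, 21.1, 24.1 and 21.9 CPM in Cdk7_KO and 22.2, 18.1, 15.1, 14.9 and 18.7 CPM in Ctrl in the same order of replicates. Ctrl replicate 1 alone reached the Cdk7_KO range, and the other Ctrl libraries lay below it. The log2 fold change of Pcdhgb1 was 0.38 (SE 0.13, edgeR adjusted p = 0.208), at 0.14 within the male and 0.60 within the female libraries.

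Pcdhga11, the most abundant alternate isoform, was at 57.5 ± 3.86 CPM in Cdk7_KO and 52.5 ± 4.99 CPM in Ctrl (SD, n = 5 each), and the groups overlapped. Its log2 fold change was 0.18 (SE 0.08, edgeR adjusted p = 0.271), with 0.20 within the male and 0.19 within the female libraries. The antisense model Gm26672, which overlaps it and 3 neighbours, had 49 to 126 counts. The remaining A and B isoforms ranged from -0.12 for Pcdhgb8 to 0.29 for Pcdhgb4, and Pcdhga6 and Pcdhga12 were each at -0.02. For Pcdhgb8, with 20 to 74 counts per library, it was 0.86 within the male and -0.62 within the female libraries.

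The gamma C-type isoforms differed from one another. Pcdhgc4, at 37815079 to 37841873, was at 92.6, 103.3, 84.3, 115.1 and 94.1 CPM in Cdk7_KO replicates 1 to 5, against 72.9, 87.5, 86.0, 77.1 and 85.0 CPM in Ctrl replicates 1, 3, 4, 5 and 6. All Cdk7_KO libraries but replicate 3 lay above every Ctrl library. Its log2 fold change was 0.32 (SE 0.10, 95% interval 0.11 to 0.53, edgeR adjusted p = 0.181, DESeq2 adjusted p = 0.0835), and it was 0.23 within the male and 0.44 within the female libraries. The summed interneuron markers, of the cells that need this isoform, had medians of 138.0 CPM in Cdk7_KO and 266.0 CPM in Ctrl, and their part in the value of Pcdhgc4 was not tested.

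Pcdhgc3, the neighbour of Pcdhgc4 on its 5′ side, was at 311.0, 252.8, 269.0, 290.6 and 291.0 CPM in Cdk7_KO replicates 1 to 5, against 291.6, 283.0, 271.3, 299.2 and 282.7 CPM in Ctrl replicates 1, 3, 4, 5 and 6. The Ctrl range lay within the Cdk7_KO range. The summed radial glia and astrocyte markers had medians of 675.8 CPM in Cdk7_KO and 1365 CPM in Ctrl, and their part in the level of Pcdhgc3 was not tested. The log2 fold change of Pcdhgc3 was 0.04 (SE 0.07), with a 95% interval from -0.11 to 0.19. Scaled by library totals alone, without edgeR's TMM factors, it was -0.01. Pcdhgc5 was at 13.1 ± 1.74 CPM in Cdk7_KO and 12.9 ± 1.28 CPM in Ctrl (SD, n = 5 each), with a log2 fold change of 0.09 (SE 0.14), at -0.12 within the male and 0.32 within the female libraries.

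In the alpha cluster no isoform stood out. Pcdhac2, the C-type isoform at its 3′ end, which serotonergic axons need for their spacing, was at 36.9, 41.6, 41.3, 40.6 and 53.3 CPM in Cdk7_KO replicates 1 to 5, against 46.6, 43.1, 35.6, 39.8 and 48.9 CPM in Ctrl replicates 1, 3, 4, 5 and 6. The highest value was in Cdk7_KO replicate 5, and the groups overlapped. Its log2 fold change was 0.05 (SE 0.12), with library totals -0.003, and without Cdk7_KO replicate 5 -0.05. It was -0.15 within the male and 0.27 within the female libraries. Pcdhac1 was at 5.91 ± 1.10 CPM in Cdk7_KO and 5.36 ± 1.54 CPM in Ctrl (SD, n = 5 each), with a log2 fold change of 0.19 (SE 0.22).

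The largest log2 fold change of an alpha isoform was 0.33 (SE 0.20, edgeR adjusted p = 0.466) for the Pcdha11 row ENSMUSG00000102206, at 12.2 ± 3.00 CPM in Cdk7_KO and 10.1 ± 1.92 CPM in Ctrl (SD, n = 5 each). The log2 fold change of this row was 0.21 within the male and 0.54 within the female libraries. The other alternate alpha isoforms lay between -0.15 for Pcdha6 and 0.17 for Pcdha3. The more abundant of them were Pcdha12, at 23.6 ± 5.09 CPM in Cdk7_KO and 22.5 ± 4.15 CPM in Ctrl (log2 fold change 0.11, SE 0.17), and Pcdha9, at 14.4 ± 1.93 CPM in Cdk7_KO and 15.9 ± 2.27 CPM in Ctrl (-0.09, SE 0.14). Within the male and the female libraries the values were -0.09 and 0.37 for Pcdha12, 0.02 and -0.17 for Pcdha9, and -0.08 and 0.42 for Pcdha3.

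Beta isoforms, which lack the constant exons, centred on 0. The most abundant, Pcdhb17, was at 32.6 ± 6.59 CPM in Cdk7_KO and 33.4 ± 4.71 CPM in Ctrl, and its log2 fold change of 0.02 (SE 0.15) was -0.04 with library totals. Pcdhb20, at 20.98 ± 3.10 CPM in Cdk7_KO and 22.3 ± 3.16 CPM in Ctrl, had -0.03 (SE 0.14), and 0.11 with replicate number as a block. The extremes of the cluster were Pcdhb8 at 0.23 (SE 0.19) and Pcdhb19 at -0.23 (SE 0.13, edgeR adjusted p = 0.414), and Pcdhb14 had -0.18 (SE 0.27), with 0.08 within the male and -0.20 within the female libraries.

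Pcdhb19 was at 21.3, 21.5, 21.5, 27.8 and 26.9 CPM in Cdk7_KO replicates 1 to 5, against 26.3, 27.2, 28.5, 27.9 and 34.6 CPM in Ctrl replicates 1, 3, 4, 5 and 6. The Cdk7_KO replicates 1 to 3 lay below all Ctrl libraries and the other two within their range. As a share of the beta cluster's counts the groups separated: Pcdhb19 took 7.72, 9.84, 9.40, 9.20 and 9.27% in Cdk7_KO and 11.2, 11.1, 10.4, 9.94 and 10.6% in Ctrl in the same order of replicates. This was the 1 share of 58 whose groups did not overlap, by a gap that is small beside the spread of either group. In CPM, 2.41% of all genes tested were lower without overlap and 0.610% higher. No such rate is given for shares within a cluster, and this separation was not tested. The edgeR log2 fold change of the Pcdhb19 level was -0.30 within the male and -0.06 within the female libraries.

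Summed over a cluster, the genotypes overlapped in all 3 cases. The alpha cluster took 154.7 ± 17.996 CPM in Cdk7_KO and 154.2 ± 12.3 CPM in Ctrl, and the beta cluster 262.9 ± 37.2 CPM in Cdk7_KO and 272.5 ± 35.9 CPM in Ctrl (SD, n = 5 each). Both differences were far smaller than the spread within a genotype. The gamma cluster was at 817.6, 783.3, 775.4, 860.7 and 805.8 CPM in Cdk7_KO replicates 1 to 5, against 759.1, 803.1, 721.5, 768.0 and 777.8 CPM in Ctrl replicates 1, 3, 4, 5 and 6. The difference of 42.6 CPM exceeded the SD within either group (33.7 CPM in Cdk7_KO and 29.8 CPM in Ctrl), while the ranges overlapped. These SDs describe the spread of single libraries and not the error of a difference of means, which was not tested. As log2 ratios of the means, Cdk7_KO over Ctrl, the cluster sums were at 0.004 for alpha, -0.05 for beta and 0.08 for gamma with library totals. After TMM scaling they were at 0.06, 0.003 and 0.13, so that the sign of the beta difference depends on the scaling. The log2 ratio of the gamma sum was 0.02 within the male and 0.14 within the female libraries, and that of the alpha sum was -0.13 within the male and 0.18 within the female libraries. The beta sum in male libraries was 275.9, 218.5 and 228.5 CPM in Cdk7_KO and 235.0 and 245.5 CPM in Ctrl. In female libraries it was 301.7 and 289.7 CPM in Cdk7_KO and 274.4, 281.0 and 326.7 CPM in Ctrl, so the genotypes overlapped within each sex.

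**Figure D3:**
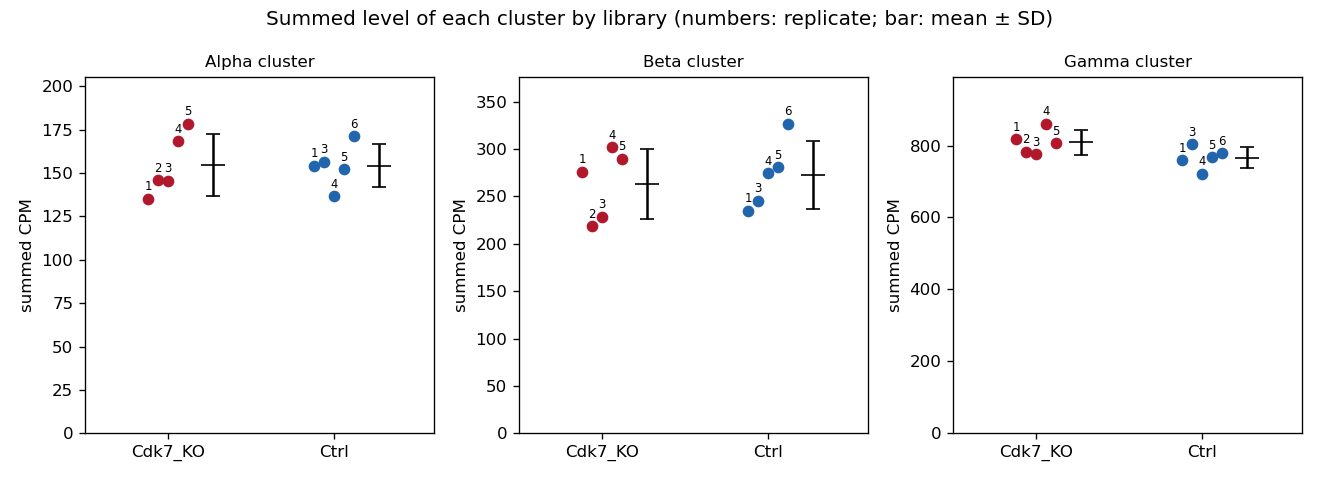
Summed CPM of the alpha, beta and gamma clusters in each library, Cdk7_KO (red) left of Ctrl (blue), with replicate numbers beside the points and bars for mean ± SD (n = 5). The groups overlap in each cluster, and the gamma mean is 809 CPM in Cdk7_KO and 766 CPM in Ctrl.

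Composition was compared by the share of each isoform type in its cluster. C-type isoforms made up 31.4 ± 2.69% of alpha counts in Cdk7_KO and 31.1 ± 1.75% in Ctrl. In the gamma cluster they made up 48.7 ± 1.68% in Cdk7_KO and 49.7 ± 1.29% in Ctrl, the A type 36.6 ± 1.81% in Cdk7_KO and 36.2 ± 1.24% in Ctrl, and the B type 14.7 ± 0.46% in Cdk7_KO and 14.1 ± 0.36% in Ctrl (SD, n = 5 each). Each of these pairs overlapped, and the B-type difference of 0.58 percentage points was the 1 of these 4 that exceeded both SDs. Among single gamma isoforms, the differences of Pcdhgc3 (-2.34 percentage points), Pcdhgc4 (1.41), Pcdhgb1 (0.44) and Pcdhga8 (0.42) exceeded both SDs, with overlap. In the other clusters the same held for Pcdha6 (-0.58) and Pcdhb8 (0.61), with overlap, and for Pcdhb19 (-1.55), without. To exceed the SDs of single libraries is no test of a difference of means, and no share was tested. Pcdhgb1 took 2.76 ± 0.12% of gamma counts in Cdk7_KO and 2.32 ± 0.38% in Ctrl. Pcdhgc3 took 35.0 ± 2.21% of gamma counts in Cdk7_KO and 37.3 ± 1.52% in Ctrl, and Pcdhgc4 12.1 ± 1.13% in Cdk7_KO and 10.7 ± 0.90% in Ctrl. Pcdhga8 took 2.61 ± 0.32% in Cdk7_KO and 2.19 ± 0.11% in Ctrl, where Cdk7_KO replicate 4 (2.32%) lay below Ctrl replicate 3 (2.38%).

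Position along the cluster was summarised by numbering the isoforms from the 5′ end and averaging their numbers with the counts as weights. The mean position was 9.94 ± 0.21 in Cdk7_KO and 9.87 ± 0.24 in Ctrl for the 14 alpha isoforms, and 13.7 ± 0.25 in Cdk7_KO and 13.8 ± 0.14 in Ctrl for the 22 beta isoforms. For the 22 gamma isoforms it was 15.05 ± 0.10 in Cdk7_KO and 15.25 ± 0.26 in Ctrl, a difference of -0.20 that is within the spread of the Ctrl group. This difference was 0.04 within the male and -0.35 within the female libraries.

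The 6 gamma isoforms upstream of Pcdhga5, namely Pcdhga1, Pcdhga2, Pcdhga3, Pcdhgb1, Pcdhga4 and Pcdhgb2, were grouped after their values had been seen, and no test was made of them. All 6 had a positive log2 fold change (median 0.23), against 10 of the 13 A and B isoforms from Pcdhga5 on (median 0.09). Their summed share of gamma counts was 17.3, 18.4, 17.3, 17.1 and 18.4% in Cdk7_KO replicates 1 to 5, against 17.5, 17.7, 15.4, 14.6 and 16.2% in Ctrl replicates 1, 3, 4, 5 and 6. The Ctrl replicates 1 and 3, which are male, lay within the Cdk7_KO range, and the female Ctrl replicates 4, 5 and 6 below it. The difference of the means was 1.43 percentage points over all libraries, 0.08 within the male and 2.36 within the female libraries.

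**Figure D4:**
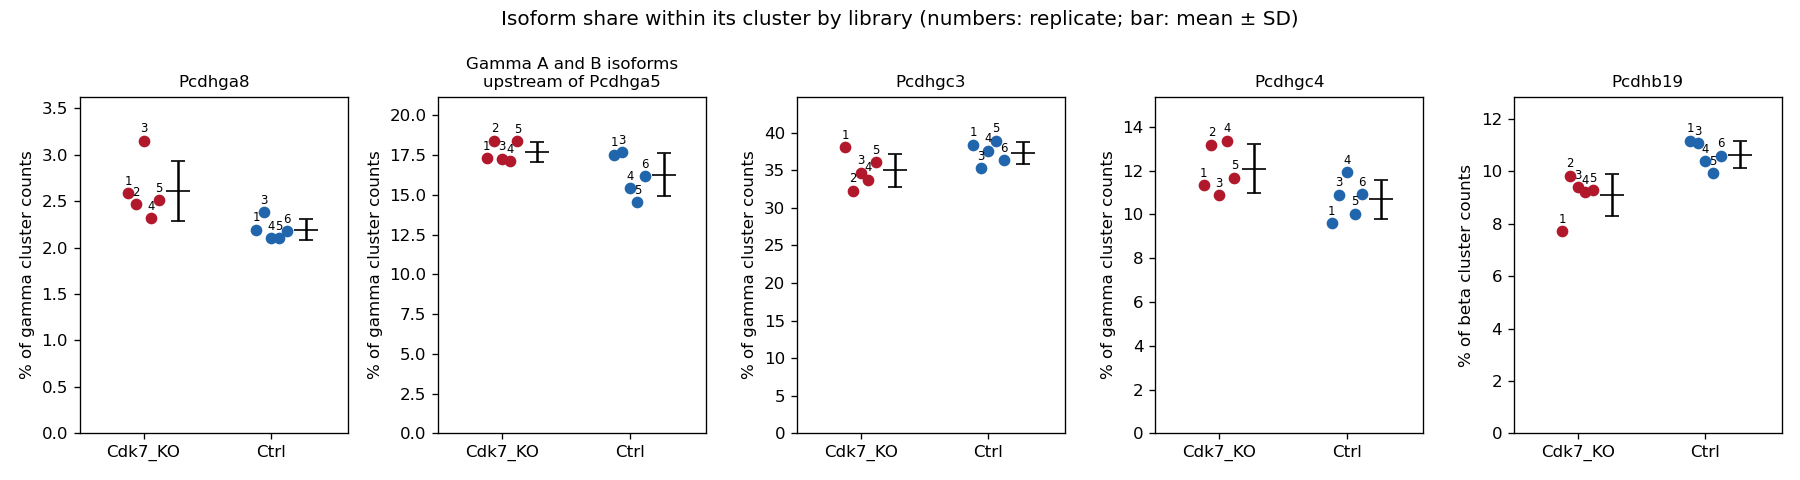
Share of cluster counts by library for Pcdhga8, the 6 gamma A and B isoforms upstream of Pcdhga5, Pcdhgc3, Pcdhgc4 (all in % of gamma counts) and Pcdhb19 (% of beta counts), Cdk7_KO (red) left of Ctrl (blue), with replicate numbers and bars for mean ± SD (n = 5). The groups separate for Pcdhb19 and overlap in the other panels, and Ctrl replicates 1 and 3 sit with the Cdk7_KO libraries in the panel of upstream isoforms.

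The evenness of isoform use was expressed as the effective number of isoforms, the number of equally used isoforms that would give the same Shannon entropy. It was 9.33 ± 0.37 in Cdk7_KO and 9.33 ± 0.35 in Ctrl for the alpha cluster, 17.5 ± 0.22 in Cdk7_KO and 17.5 ± 0.43 in Ctrl for the beta cluster, and 11.7 ± 0.43 in Cdk7_KO and 11.3 ± 0.34 in Ctrl for the gamma cluster (SD, n = 5 each). The gamma cluster, with the same number of isoforms as the beta cluster, thus had the lower effective number, with Pcdhgc3 alone at the shares given above. The gamma difference of 0.45 slightly exceeded the SD of both groups, with overlap, and was not tested.

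Genes that shape or use the clusters were read from the same edgeR fit. In it 0.00% of all genes tested passed the correction, and 4.90% were higher and 10.5% lower at an unadjusted p under 0.05. Of 10 genes for CTCF and cohesin subunits and regulators, 0 passed the correction in edgeR and 0 reached an unadjusted p under 0.05, with a median log2 fold change of -0.01. Ctcf was at 148.6 ± 10.96 CPM in Cdk7_KO and 144.0 ± 8.58 CPM in Ctrl, with a log2 fold change of 0.10 (SE 0.07). The cohesin loader gene Nipbl was at -0.09 (SE 0.11) and the cohesin regulator gene Pds5a at -0.06 (SE 0.07).

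Of 15 genes for silencing and DNA methylation, 0 passed the correction in edgeR, with a median of 0.05. At an unadjusted p under 0.05, 1 was higher and 2 lower, where 4.90% and 10.5% of all genes tested were. The DNA methyltransferase gene Dnmt3a was at 125.0 ± 9.66 CPM in Cdk7_KO and 149.8 ± 14.1 CPM in Ctrl, a log2 fold change of -0.21 (SE 0.07, edgeR adjusted p = 0.205), and the ranges overlapped slightly. Rest, which encodes a repressor of neuronal genes in other cells, was at 3.89 ± 1.76 CPM in Cdk7_KO and 7.30 ± 2.17 CPM in Ctrl, a log2 fold change of -0.85 (SE 0.39, edgeR adjusted p = 0.320). Wiz, which encodes a zinc finger partner of histone H3 lysine methyltransferases, was at 0.14 (SE 0.06).

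Of 20 genes for protocadherin partners and downstream signalling, 0 passed the correction in edgeR, with a median of 0.05. At an unadjusted p under 0.05, 2 were higher and 1 lower, where 4.90% and 10.5% of all genes tested were. Axin1, whose product binds the cytoplasmic part of the Pcdhgc3 protein and scaffolds the beta-catenin destruction complex, was at 65.4 ± 2.94 CPM in Cdk7_KO and 58.1 ± 4.02 CPM in Ctrl, a log2 fold change of 0.23 (SE 0.06, edgeR adjusted p = 0.172, DESeq2 adjusted p = 0.0797). Of the paired subunits of the WAVE actin regulatory complex, which binds alpha protocadherins, Cyfip2 was at 0.14 (SE 0.06) and Cyfip1 at -0.27 (SE 0.12).

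Of 15 genes that flank the clusters or lie between them, 14 were tested and 0 passed the correction in edgeR, with a median of 0.10. At an unadjusted p under 0.05, 1 was higher and 2 lower, where 4.90% and 10.5% of all genes tested were. Zmat2, upstream of the alpha cluster, was at 122.4 ± 2.33 CPM in Cdk7_KO and 112.5 ± 7.36 CPM in Ctrl, a log2 fold change of 0.17 (SE 0.06). The lower ones were Arap3 (-1.69, SE 0.56), at 4.10 ± 2.41 CPM in Cdk7_KO and 13.5 ± 11.8 CPM in Ctrl, and Dnd1 (-1.41, SE 0.49), at 0.56 ± 0.38 CPM in Cdk7_KO and 1.55 ± 0.55 CPM in Ctrl. For Arap3, Ctrl replicate 1 stood at 34.3 CPM, and without it the Ctrl mean was 8.37 CPM and the log2 fold change -0.99 (edgeR adjusted p = 0.378). The same library had the highest vascular marker sum, 1092 CPM, and the part of these cells in the Arap3 value was not tested. DESeq2 called 0 genes of these 4 lists, where 0.225% of the genes with an adjusted p were called higher and 3.02% lower.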

How the data were processed

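The authors deposited raw counts of reads per gene as whole numbers, with 1 column for each library, from polyA RNA and, per the labels' protocols, a directional kit. The submitters' processing notes name STAR, Salmon and GRCm38. Which tool counted, with which strand setting and how it treated reads in shared exons is not given in the sources used here, so reads of antisense models such as BC037039 (227 to 356 counts, antisense to Pcdhgc3) may not be fully separated. All count columns were matched to samples by library name (0 left over). Exon lengths and order came from GENCODE M21.

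The test across genes was edgeR 4.0.16 under R 4.3.3 (filterByExpr with minimum count 10, TMM, glmQLFit, glmQLFTest, genotype alone, Benjamini-Hochberg over 15578 genes at 0.05). Standard errors came from the F statistic. CPM used library totals. DESeq2 1.42.0 was an alternative. It gave no adjusted p for 38274 genes, genes with 0 counts included. Summed levels, shares, positions and effective numbers had no test, being scores over chosen members. No library was a copy of another (smallest chi-square per gene of a pair 11.3). Each library came from its own mouse.

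Named were Cdk7, Pcdhga8, the C types, the 3 most abundant and 3 most changed isoforms per cluster, isoforms called or without overlap in share, and 3 genes of each list with the smallest p. Other isoforms were named as extremes after their values were seen. The members and lists were chosen with earlier results of these data known. Alternatives were DESeq2, RLE or library totals, no filter, replicate block, sex, each sex alone, leaving out each library, weights per kb, isoforms past the filter, positions without C types and the inverse Simpson index. Weights per unshared kb, the group upstream of Pcdhga5 the DESeq2 fits without a library, the listed genes without a library and the signs by sex over all isoforms were added after the data were seen.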

Additional observations from a re-analysis of the deposited data

Results flagged for a closer look

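In 5 of 102 groups of 5 libraries, 1 library stood apart from the other 4 by more than Dixon's critical value of 0.71 times the group's range, where chance flags about 1 in 20 groups. Cdk7_KO replicate 4 was low for Pcdhb8, with 2.87% of beta counts against 3.73 to 3.91% in the other Cdk7_KO libraries. It was also low for Pcdhb20, with 6.36% against 8.23 to 8.85%. Pcdhac2 was high in Cdk7_KO replicate 5, at 53.3 CPM against 36.9 to 41.6 CPM. Pcdhb19 was high in Ctrl replicate 6, at 34.6 CPM against 26.3 to 28.5 CPM in the other Ctrl libraries. Pcdhgc5 was low in Ctrl replicate 4, at 10.6 CPM against 13.2 to 13.9 CPM.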

How the results depend on the processing

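Of 920 values under alternatives, for 55 results, 873 were scored as the same. A log2 fold change was so scored if it kept its sign and its side of the threshold. A count of isoforms could change a little, as from 5 to 4 or 6. A summed level, share, position or effective number had to move by less than the spread, whatever its sign. edgeR called 0 isoforms under every alternative, and DESeq2 called 1. The count of isoforms higher at an unadjusted p under 0.05, 5 over all libraries, was 0 for male libraries alone, 6 for female libraries alone, 6 with sex as a factor, and 3 (without Ctrl replicate 4) to 6 with 1 library left out. The count lower was 1 with library totals and 0 to 1 with 1 library left out (1 without Cdk7_KO replicate 4). For these alternatives no share of all genes is given here. The log2 fold change of Cdk7, -1.54 with an edgeR adjusted p of 0.161, was -1.54 in DESeq2 (adjusted p = 2.41e-08), -1.54 with no filter (edgeR adjusted p = 0.0393), -1.43 with sex as a factor (edgeR adjusted p = 0.00828) and -1.68 to -1.44 with 1 library left out (edgeR adjusted p = 0.0391 without Cdk7_KO replicate 1).

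Some log2 fold changes of the 18 isoforms picked by the naming rule took the other sign. Within the male libraries this held for Pcdha3 (-0.083), Pcdha9 (0.018), Pcdha12 (-0.091), Pcdhac2 (-0.15), Pcdhb14 (0.082), Pcdhgc3 (-0.034) and Pcdhgc5 (-0.12). Over all 56 tested isoforms the sign was the other way for 20 within the male and 11 within the female libraries. With library totals it held for Pcdhac2 (-0.0031), Pcdhb17 (-0.035) and Pcdhgc3 (-0.014), and with the replicate block for Pcdhb20 (0.11). With 1 library left out they ranged from -0.047 to 0.11 for Pcdhac2, -0.068 to 0.13 for Pcdhb17, -0.094 to 0.067 for Pcdhb20 and -0.026 to 0.13 for Pcdhgc5. The log2 ratio of the summed level in the female libraries alone was 0.18 for alpha (-0.13 in the male libraries) and 0.14 for gamma. In the male libraries alone the difference in gamma position was 0.040 and that in the share of the isoforms upstream of Pcdhga5 was 0.078 percentage points. The cause of these shifts was not tested.

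Deviations from the group means of same-numbered libraries correlated at -0.10, 0.31, 0.14 and 0.17 for replicates 1, 3, 4 and 5, so the numbers were not taken to pair the libraries. With replicate number as a block edgeR called 0 isoforms, 6 were higher at an unadjusted p under 0.05, and Pcdhga8 had a log2 fold change of 0.42 (edgeR adjusted p = 0.168). Pcdha1, Pcdha8 and Pcdhgb8 had the fewest counts among the tested isoforms, and their spread between libraries, given above, goes beyond counting error.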

Other observations

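The summed level of the beta cluster lay higher in female than in male libraries, with overlap. It was between 274.4 and 326.7 CPM in the 5 female libraries (median 289.7 CPM) and between 218.5 and 275.9 CPM in the 5 male libraries (median 235.0 CPM), and Cdk7_KO replicate 1 was the male library that reached the female range. The gamma cluster showed no such split, with 721.5 to 860.7 CPM in female and 759.1 to 817.6 CPM in male libraries. For the alpha cluster the ranges were 136.8 to 178.4 CPM in female and 135.2 to 156.5 CPM in male libraries. This grouping was noticed in the data and was not tested.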
